A study of Mus musculus with 7 samples.

Results

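The 10 genes described here encode enzymes that act on retinol (vitamin A), on retinal or on alcohols and aldehydes in the liver. They were listed by name, with earlier results of these data known: Rdh16, Rdh7, Rdh11 and Dhrs3 from the short-chain dehydrogenases, Adh1 and Adh4 from the alcohol dehydrogenases, Aldh1a1 and Aldh1a7 from the aldehyde dehydrogenases, and Lrat and Retsat, which act on retinol itself. All 10 were found by symbol among the 23594 genes of the liver table, and all 10 passed the filter on low values. The question was how their mRNA levels differed after LIF (leukemia inhibitory factor, a cytokine of the interleukin-6 family) was induced in the whole body.

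Bulk liver RNA came from 4 TgLC and 3 TgL mice. TgLC mice carried mouse Lif under the CAG promoter at Rosa26 with a STOP cassette in front of it, together with R26-CreERT2, a Cre that tamoxifen (TAM) activates and that is expressed from Rosa26 in most tissues. TgL mice carried the same Lif cassette and no Cre. All 7 mice were given TAM, by a single i.p. injection at 8 weeks of age in the study's protocol, at 32 µg per g in females and 64 µg per g in males, so exposure to TAM was shared and the effect of LIF could not be told apart from that of active Cre. The study reported lower food intake in TgLC mice after TAM. No liver here is labelled as pair-fed, so reduced intake could not be told apart from LIF either. Not given in the sources used here were the sex of each mouse, the time from injection to liver collection and whether mice were littermates. Xist and Y-linked genes, given at the end, had a female pattern in all 7 livers. Each library is 1 mouse.

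The values are normalized counts, that is reads per gene divided by a DESeq2 size factor for each mouse. Libraries held 11325974 to 12448961 reads in TgLC mice and 9367681 to 11030699 reads in TgL mice. Lif itself was at 10 to 25.0 normalized counts in TgLC livers and 0 to 1.99 in TgL livers. Some technical facts bear on the results below. First, 15 acute-phase genes took 21.5% to 23.1% of the reads in TgLC livers against 2.17% to 2.47% in TgL livers. Scaling to library totals called 8 of the 10 genes lower, beside 32.5% of all genes tested, and 0 higher. Its counts are given beside the gene lists that it changed. Second, the sample labels fall into series: TgLC 1, TgLC 2, TgL 1 and TgL 2 have labels from 8264 to 8270, TgL 3 is 8530, and TgLC 3 and TgLC 4 have labels starting with YXL. The labels do not say what these series are. The hepatocyte markers were all detected, with Alb at 4.63% to 5.59% of the reads in TgLC livers and 9.61% to 10.4% in TgL livers. Exocrine pancreas markers summed to 42 to 56.7 normalized counts in TgLC livers and 717 to 1166 in TgL livers, and their part in the results was not tested. In bulk RNA, fewer cells of a type and less RNA per cell cannot be told apart.

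Retinol reaches the liver from the diet and is stored there as retinyl esters, mostly in hepatic stellate cells, after esterification by LRAT. Retinol dehydrogenases of the short-chain family and some alcohol dehydrogenases oxidize retinol to retinal reversibly, retinal reductases such as DHRS3 turn it back, and aldehyde dehydrogenases of the ALDH1A group oxidize retinal irreversibly to retinoic acid. Retinoic acid binds nuclear receptors (RARs with RXRs) and is cleared by CYP26 enzymes. The alcohol and aldehyde dehydrogenases of hepatocytes also carry out most of the oxidation of ingested ethanol.

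In TgLC livers 6 of the 10 genes were lower and 0 were higher by limma at an adjusted p under 0.05, against 15.0% lower, 16.2% higher and 31.2% in either direction among the 13145 genes tested. The 6 were Rdh16, Rdh11, Dhrs3, Adh1, Adh4 and Aldh1a1, and in each of them the highest TgLC mouse lay below the lowest TgL mouse, a pattern found in 19.9% of all genes tested. Rdh7, Aldh1a7, Lrat and Retsat did not pass, and their groups overlapped. The count of 0 higher genes was also 0 at an unadjusted p under 0.05 and by limma-voom, edgeR and DESeq2, except that Lrat passed in the 4 mice labelled 8264 to 8270. The median log2 fold change of the 10 genes was -1.33, beside 0.00 over all genes tested. Without the TgLC mice labelled YXL 9 of the 10 were lower, beside 18.2% of all genes tested, and with them as the only TgLC mice the same 6 were, beside 18.3%. The 10 genes together held 0.146% to 0.214% of the reads in TgLC livers and 0.509% to 0.538% in TgL livers.

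**Figure D1:**
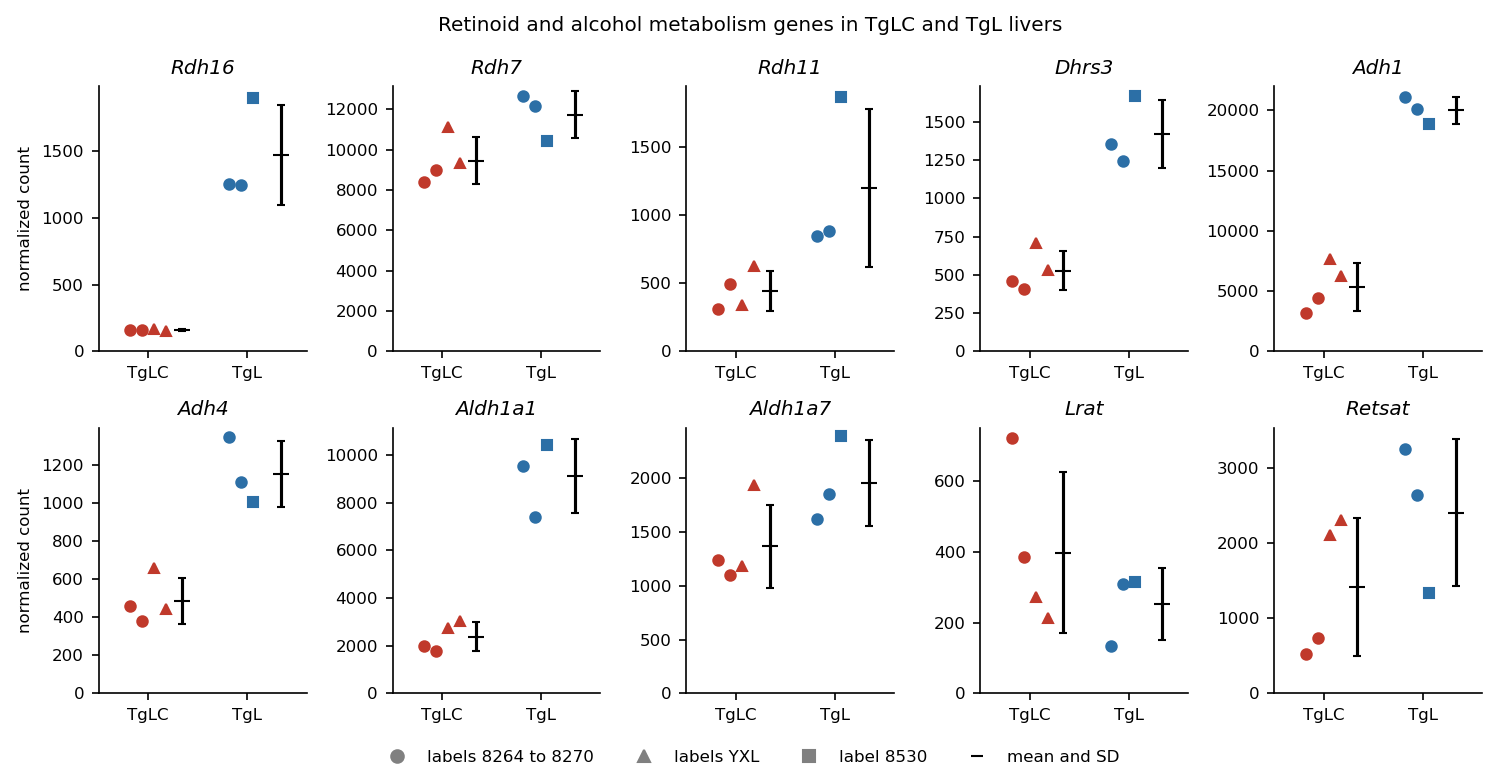
Normalized counts of the 10 genes in each liver, TgLC left and TgL right in each panel, with a y axis of its own from 0. Points are mice, their shape gives the label series, and bars show the mean and SD. The 4 TgLC points for Rdh16 lie between 153 and 169 and all below the TgL points, while for Retsat the TgLC mice labelled YXL lie apart from the other TgLC mice.

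Levels can be compared between genes only per length, here in TPM (transcripts scaled to the same total in each mouse), computed from the reads and the exon length of each gene. In TgLC livers the highest was Rdh7 at 1208 ± 102 TPM (SD, n = 4), followed by Adh1 at 511 ± 167 TPM, Aldh1a7 at 142 ± 37.1 TPM, Aldh1a1 at 103 ± 21.5 TPM, Retsat at 84.3 ± 52.2 TPM and Adh4 at 71.5 ± 14.4 TPM. The lower ones were Dhrs3 at 38.4 ± 7.38 TPM, Rdh11 at 27.6 ± 9.03 TPM, Lrat at 16.2 ± 9.71 TPM and Rdh16 at 5.61 ± 0.354 TPM. Neighbours in that order from Aldh1a7 to Adh4, and from Dhrs3 to Lrat, overlapped in their ranges over mice. In TgL livers Adh1 came first at 2476 ± 77 TPM (SD, n = 3), Rdh7 next at 1931 ± 155 TPM and Aldh1a1 after them at 512 ± 90 TPM, with Rdh16 at 65.6 ± 18.1 TPM above Lrat at 13.2 ± 5.55 TPM. The annotated exons of Rdh16 add up to 6217 bases over all its transcripts, far more than its coding length of 951 bases, so its TPM may be understated. Those of Aldh1a1 add up to 4937 bases and those of Aldh1a7 to 2066, with 1503 coding bases in each. The order of this pair in TgLC livers rests on these lengths, since Aldh1a1 had 2382 normalized counts on average and Aldh1a7 1364.

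Rdh16 encodes a short-chain dehydrogenase that oxidizes cis-retinols and androgens in the mouse. It had 162, 164, 169 and 153 normalized counts in TgLC livers, against 1259, 1251 and 1904 in TgL livers. The TgLC mice of both label series were close to each other, and the lowest TgL mouse was several times higher than any of them. The level averaged 162 ± 6.53 in TgLC livers (SD, n = 4) and 1471 ± 374 in TgL livers (SD, n = 3), and the difference was the largest among the 10 genes (log2 fold change -3.15, SE 0.16, limma adjusted p = 4.14e-06). It passed in each of the 20 alternative fits, with log2 fold changes between -3.50 and -2.94.

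Rdh7, a close paralog with cis-retinol and androgen dehydrogenase activity, lies in the same gene cluster on chromosome 10. It had 8371, 8985, 11118 and 9345 normalized counts in TgLC livers, against 12656, 12154 and 10406 in TgL livers. TgLC 3 lay above TgL 3, so the groups overlapped, and the difference did not pass (log2 fold change -0.32, SE 0.14, limma adjusted p = 0.129, 95% interval -0.64 to 0.01). It passed without TgLC 3 (log2 fold change -0.40, adjusted p = 0.0458), without both YXL mice (-0.43, adjusted p = 0.0289), in the 4 mice labelled 8264 to 8270 (-0.52, adjusted p = 0.00696) and by edgeR scaled to library totals (-0.63, adjusted p = 0.00479), a scaling that moved the median of all genes by -0.30 and called 32.5% of them lower.

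Whether any motif has a part in the change of either gene was not tested. The promoters of Rdh16 and Rdh7, which lie in 1 cluster, are shown here. Each is 250 bases before the RefSeq start on GRCm38.p6. Capitals in Rdh16 mark TTCCNGGAA, a palindrome of the kind STAT factors bind, and AGGTCA, a site that many nuclear receptors bind. Capitals in Rdh7 mark the same nuclear receptor motif and, nearer the start, CCAAT. In both genes these last motifs are read on the opposite strand, so the letters printed are TGACCT for the receptor motif and ATTGG for the other.
Rdh16, chr10:127800903-127801152, plus strand: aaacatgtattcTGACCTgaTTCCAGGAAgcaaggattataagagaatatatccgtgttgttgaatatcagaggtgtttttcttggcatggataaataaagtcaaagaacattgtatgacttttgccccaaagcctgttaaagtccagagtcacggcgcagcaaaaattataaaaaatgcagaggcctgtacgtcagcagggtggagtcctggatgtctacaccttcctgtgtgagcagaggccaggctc
Rdh7, chr10:127889248-127889497, minus strand: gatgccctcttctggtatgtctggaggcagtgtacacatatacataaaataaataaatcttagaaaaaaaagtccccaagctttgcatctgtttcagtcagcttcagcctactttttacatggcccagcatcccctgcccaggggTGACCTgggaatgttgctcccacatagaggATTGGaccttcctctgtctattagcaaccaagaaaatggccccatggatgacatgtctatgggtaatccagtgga
Windows of this kind were matched for all 10 genes (15 windows, since some genes have several starts) and searched on both strands with no overlap between the marked motifs. TTCCNGGAA was in 1 of the 10 genes, Rdh16, at 230 to 222 bases before the start, and in 0.913% of all 32851 windows. AGGTCA was in 4 genes (Rdh16, Rdh7, Rdh11 and Adh4) and in 14.0% of windows, CCAAT in 7 genes, with Rdh16, Adh1 and Retsat the exceptions, and in 33.8% of windows, and TATAAA in 3 genes (Rdh16, Aldh1a7 and Retsat) and in 12.4% of windows. These are matches of letters and not binding sites. A gene was counted if any of its windows matched, while the shares are of single windows. Genes with several starts thus had more chances to match.

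Rdh11, a microsomal enzyme that reduces retinal to retinol with NADPH, had 313, 494, 341 and 623 normalized counts in TgLC livers, against 842, 884 and 1866 in TgL livers. The highest TgLC mouse stayed below the lowest TgL mouse, and TgL 3 stood well above the other TgL mice. Rdh11 fell in TgLC livers (log2 fold change -1.39, SE 0.32, limma adjusted p = 0.011), and without TgL 3 it still passed at -1.02 (adjusted p = 0.0309).

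Dhrs3, a retinal reductase that is itself known as a target gene of retinoic acid, had 462, 410.5, 705 and 529 normalized counts in TgLC livers, against 1354, 1243 and 1670.1 in TgL livers. The groups did not overlap, and TgLC 3 was the highest of its group. The level averaged 527 ± 129 in TgLC livers (SD, n = 4) and 1422 ± 222 in TgL livers (SD, n = 3) and fell in TgLC livers (log2 fold change -1.45, SE 0.19, limma adjusted p = 6.36e-04).

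Adh1, the class I alcohol dehydrogenase that oxidizes ethanol and retinol in hepatocytes, had 3156, 4409.8, 7700.2 and 6221 normalized counts in TgLC livers, against 21095, 20078 and 18883 in TgL livers. The TgL mice were close together, and among TgLC mice those labelled YXL were higher than the other pair. Adh1 averaged 5372 ± 1998 in TgLC livers (SD, n = 4) and 20019 ± 1107 in TgL livers (SD, n = 3) and fell in TgLC livers (log2 fold change -1.98, SE 0.27, limma adjusted p = 8.16e-04). With the YXL mice as the only TgLC mice the log2 fold change was -1.53 (adjusted p = 7.25e-04), and without them it was -2.42 (adjusted p = 6.86e-05).

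Adh4, the class II enzyme, had 458, 379, 659 and 446 normalized counts in TgLC livers, against 1346, 1112 and 1005 in TgL livers. No TgLC mouse reached the lowest TgL mouse. Adh4 fell as well (log2 fold change -1.27, SE 0.19, limma adjusted p = 0.00132), and the within-mouse ratio of these genes is tested below.

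The alcohol dehydrogenase genes lie in a row on chromosome 3, in the order Adh7, Adh1, Adh6a, Adh6b, Adh4 and Adh5 of the RefSeq annotation. Of the 5 that were tested 3 fell, 1 rose and 1 did not pass, beside 15.0% lower and 16.2% higher among all genes tested. Adh7, the class IV enzyme, which oxidizes retinol efficiently, had 184, 232, 239.8 and 187 normalized counts in TgLC livers, against 389, 481 and 246 in TgL livers. It fell (log2 fold change -0.77, adjusted p = 0.0281), and leaving out TgL 1, TgL 2, TgLC 1 or TgLC 4 alone ended the call (adjusted p = 0.103, 0.113, 0.0551 and 0.0658). It did not pass without the YXL mice either (log2 fold change -0.79, adjusted p = 0.06), nor with them as the only TgLC mice (-0.75, adjusted p = 0.0716). Adh6b went the other way, with 82, 40.9, 20.2 and 24 normalized counts in TgLC livers, against 1.79, 2.99 and 0 in TgL livers. Every TgLC mouse was above every TgL mouse, as in 21.1% of all genes tested, and the fitted log2 fold change of 4.05 (adjusted p = 0.00155) depends on the pseudocount, since TgL livers held a few reads or none. Without the YXL mice it passed at 4.72 (adjusted p = 0.00229), and with them as the only TgLC mice its mean was under the filter of 10 and it was not tested. Adh5, the class III enzyme, which acts on formaldehyde bound to glutathione, was at 2909 normalized counts on average in TgLC livers and 3349 in TgL livers and did not pass (log2 fold change -0.20, adjusted p = 0.168). On library totals 4 alcohol dehydrogenases were lower, with Adh5 the added gene, and 1 was higher. Adh6a had 0 reads in every TgLC liver and 2.04 normalized counts in 1 TgL liver.

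In the cluster on chromosome 10 the order is Rdh1, Rdh9, Rdh16, Rdh19, Rdh16f2, Rdh7, Sdr9c7 and Hsd17b6. Of the 6 that were tested 2 fell, beside 15.0% of all genes tested: Rdh16 and, at the far end, Hsd17b6. Hsd17b6, which oxidizes androgens and retinol, had 214, 252, 211 and 308 normalized counts in TgLC livers, against 2036, 2516 and 882 in TgL livers (log2 fold change -2.76, adjusted p = 3.21e-04). Between them, Rdh16f2 had 1546, 1811, 2703 and 2085 normalized counts in TgLC livers, against 2981, 2465 and 2715 in TgL livers, and did not pass (log2 fold change -0.44, adjusted p = 0.0966), although it passed as lower on library totals, without TgLC 3 and without both YXL mice. Rdh9 (log2 fold change -0.42, adjusted p = 0.388) and Sdr9c7 (-0.86, adjusted p = 0.0664) did not pass either, but both passed as lower without TgL 3. Coding sequences of Rdh16 and Rdh7 were 86.9% identical, of Rdh16 and Rdh16f2 91.8%, and of Rdh16f2 and Rdh7 84.4%. The longest run of identical bases between annotated transcripts was 71 bases for Rdh16 and Rdh7, so no stretch of 75 bases is shared, but short reads from the most alike stretches could still be split between them, and how the authors treated such reads is not stated in their notes.

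**Figure D2:**
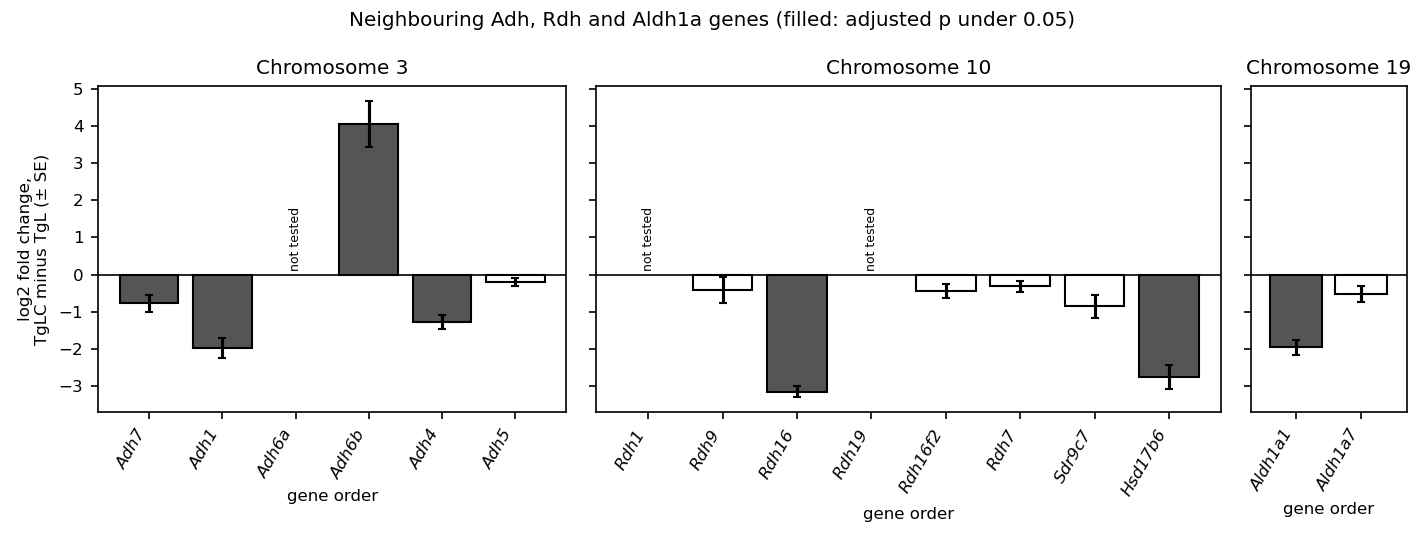
Log2 fold change (TgLC minus TgL, bars, with SE) of neighbouring genes in their order along chromosomes 3, 10 and 19, with filled bars for an adjusted p under 0.05. Adh6b is the only filled bar above 0, and Rdh16 and Hsd17b6, at -3.15 and -2.76, stand among neighbours that did not pass or were not tested.

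Aldh1a1, the cytosolic enzyme that oxidizes retinal to retinoic acid and also handles acetaldehyde and lipid aldehydes, had 1969, 1787, 2745 and 3026 normalized counts in TgLC livers, against 9550.3, 7417 and 10432 in TgL livers. The groups were far apart, with the highest TgLC mouse below the lowest TgL mouse. Aldh1a1 averaged 2382 ± 598 in TgLC livers (SD, n = 4) and 9133 ± 1549.9 in TgL livers (SD, n = 3) and fell in TgLC livers (log2 fold change -1.96, SE 0.21, limma adjusted p = 2.03e-04).

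Aldh1a7, the rodent paralog beside it on chromosome 19, had 1238, 1102, 1183 and 1932 normalized counts in TgLC livers, against 1614, 1846 and 2391 in TgL livers. TgLC 4 lay above TgL 1 and TgL 2, the other TgLC mice lay below all TgL mice, and the difference did not pass (log2 fold change -0.53, SE 0.21, limma adjusted p = 0.0865, 95% interval -1.01 to -0.05 before adjustment). It passed without TgLC 4 (log2 fold change -0.71, adjusted p = 0.0139) and without both YXL mice (-0.72, adjusted p = 0.0146). It also passed in the 4 mice labelled 8264 to 8270 (-0.56, adjusted p = 0.00658) and by edgeR on library totals (-0.84, adjusted p = 0.0151). With a second term for labels 8264 to 8270 against all other labels, it passed too (-0.60, adjusted p = 0.0279).

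The coding sequences of this pair, both 1503 bases long, were 91.6% identical. The 60 coding bases with the most differences (bases 317 to 376 of the coding sequence in GENCODE M21, 16 differences, in capitals) show where reads can be told apart.
Aldh1a1: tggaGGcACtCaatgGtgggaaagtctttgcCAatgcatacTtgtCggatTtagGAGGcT
Aldh1a7: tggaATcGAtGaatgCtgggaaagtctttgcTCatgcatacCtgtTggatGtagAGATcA
The longest identical run between the annotated transcripts was 100 bases, and 50 of the 1992 stretches of 75 bases in Aldh1a7 also occur in Aldh1a1, so a small share of reads may have been left uncounted or split between them.

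Lrat, which esterifies retinol for storage and marks hepatic stellate cells, had 722, 387, 272 and 212 normalized counts in TgLC livers, against 135, 311 and 315 in TgL livers. TgLC 1 was the highest, TgL 1 the lowest, and the other mice of both groups overlapped. The difference did not pass (log2 fold change 0.59, SE 0.43, limma adjusted p = 0.328, 95% interval -0.38 to 1.56). In the 4 mice labelled 8264 to 8270 Lrat passed as higher (log2 fold change 1.36, adjusted p = 0.0415), beside 18.7% of genes higher in that fit, and with the YXL mice as the only TgLC mice it was 0.02 (adjusted p = 0.965). The 15 other stellate cell markers summed to 8749, 7458, 4772 and 5446 normalized counts in TgLC 1 to 4, against 4896, 5367 and 5467 in TgL 1 to 3. The sum was thus also highest in TgLC 1 and TgLC 2, while the YXL mice lay at or near the TgL range, and the part of stellate cells in the Lrat values was not tested. Of the 16 stellate markers 6 rose and 1 fell, beside 16.2% higher and 15.0% lower among all genes tested. Cygb (log2 fold change 1.95, adjusted p = 2.88e-04) and Ngfr (log2 fold change 1.56, adjusted p = 0.00451) were among those that rose. Ecm1 (log2 fold change -0.52, adjusted p = 0.00413) was the only gene that fell. The count of stellate markers rests on single mice and on the scaling. Of these markers 2 rose and 1 fell without TgL 1, 4 rose and 1 fell without TgL 2, TgLC 2 or TgLC 4, and 2 rose and 2 fell on library totals. Without TgLC 1, 5 rose and 2 fell. Without the YXL mice 10 of the markers rose, and with them as the only TgLC mice 5 rose and 3 fell.

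Retsat, the saturase that turns retinol into dihydroretinol, had 520, 731, 2109 and 2306 normalized counts in TgLC livers, against 3248, 2635 and 1331 in TgL livers. The TgLC mice split by label series, with those labelled 8264 and 8266 low and the YXL pair near the TgL mice, and TgL 3 lay below the YXL pair. The difference over all mice did not pass (log2 fold change -0.95, SE 0.54, limma adjusted p = 0.214, 95% interval -2.17 to 0.27). Within the 4 mice labelled 8264 to 8270, a fit of 2 TgLC against 2 TgL mice, Retsat passed as lower (-2.24, adjusted p = 1.74e-04), beside 19.7% of genes lower in that fit, and without the YXL mice it was -1.87 (adjusted p = 0.00692), while with the YXL mice as the only TgLC mice it was -0.03 (adjusted p = 0.955). No TgL mouse carries a YXL label, so for the YXL mice the label series and the genotype cannot be told apart.

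**Figure D3:**
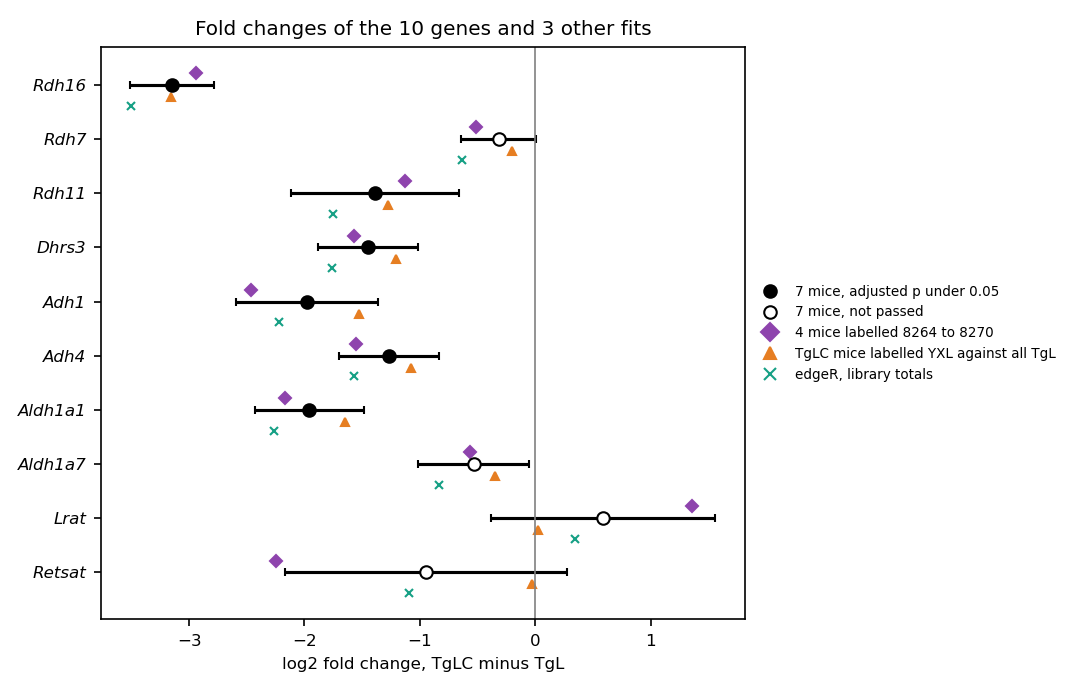
Log2 fold change (TgLC minus TgL) of the 10 genes from all 7 mice with 95% intervals (circles, filled for an adjusted p under 0.05), and the value from 3 other fits. The 6 filled genes keep their side of 0 in the other fits shown, while Retsat runs from -2.24 in the mice labelled 8264 to 8270 to -0.03 with the YXL mice as the only TgLC mice.

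Ratios of 2 genes within a mouse do not depend on the size factor. The ratio of Rdh16 to Rdh7 was 0.0173 ± 0.00185 in TgLC livers (SD, n = 4) and 0.128 ± 0.0472 in TgL livers (SD, n = 3), and that of Rdh16 to Dhrs3 was 0.320 ± 0.0697 in TgLC livers (SD, n = 4) and 1.03 ± 0.106 in TgL livers (SD, n = 3). In both, the highest TgLC mouse lay below the lowest TgL mouse, so in these mice Rdh16 was lower relative to its cluster partner and to a retinal reductase. The ratio of Aldh1a7 to Aldh1a1 was 0.579 ± 0.0990 in TgLC livers (SD, n = 4) and 0.216 ± 0.0416 in TgL livers (SD, n = 3), and that of Adh4 to Adh1 was 0.0971 ± 0.0327 in TgLC livers (SD, n = 4) and 0.0575 ± 0.00558 in TgL livers (SD, n = 3). In these ratios the lowest TgLC mouse lay above the highest TgL mouse, so in these mice Aldh1a1 and Adh1 were lower relative to their partners. The differences of the mean log2 ratios were -2.83, -1.70, 1.42 and 0.71 in this order, and each of the 4 had p = 0.0571 by a two-sided exact permutation test over 35 assignments of mice, also after adjustment over the 4, which is the smallest p that 4 mice against 3 allow and cannot reach the threshold of 0.05.

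**Figure D4:**
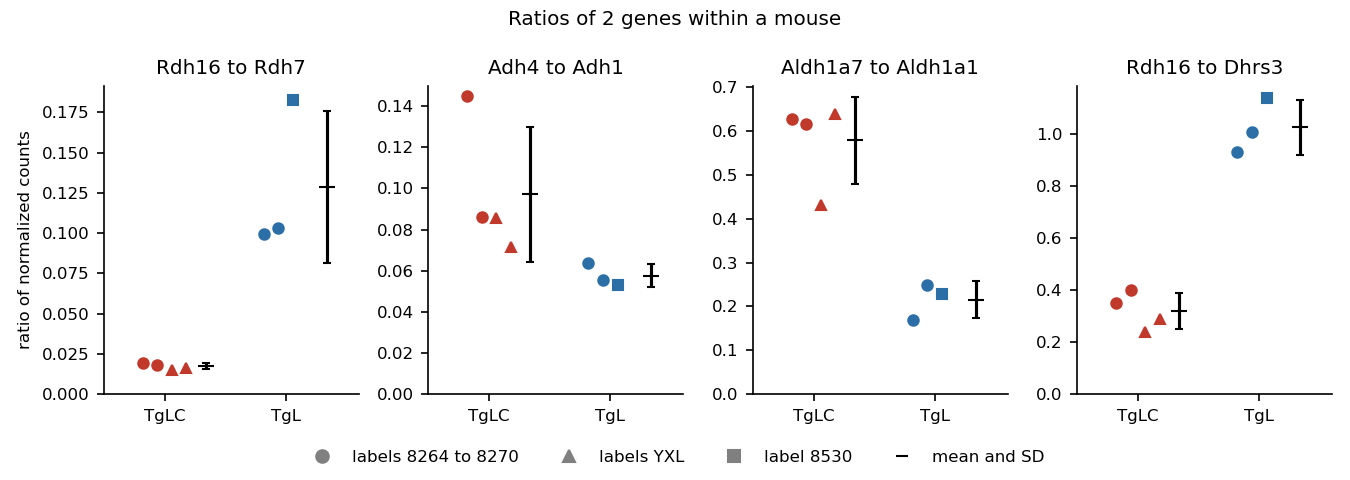
Ratio of the normalized counts of 2 genes in each liver, TgLC left and TgL right in each panel, with y axes from 0. Points are mice, their shape gives the label series, and bars show the mean and SD. Each panel separates the groups fully, with Rdh16 to Rdh7 at 0.0173 on average in TgLC livers and 0.128 in TgL livers.

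The wider families were counted from lists written from general knowledge. These counts stand beside 15.0% lower and 16.2% higher by limma among all genes tested. Of 13 retinol and retinal short-chain dehydrogenases tested, 6 fell (Rdh10, Rdh11, Rdh16, Dhrs3, Dhrs9 and Hsd17b6) and 2 rose. The 2 were Rdh13, a mitochondrial retinal reductase (log2 fold change 1.44, adjusted p = 0.00227), with 240, 260, 195 and 230.4 normalized counts in TgLC livers, against 80.5, 126 and 58.1 in TgL livers, and Rdh5, known for the oxidation of cis-retinol in the eye (log2 fold change 1.03, adjusted p = 0.00441). Rdh10, which makes retinal from retinol during development, had 129, 138, 215 and 174 normalized counts in TgLC livers, against 294, 274 and 328 in TgL livers (log2 fold change -0.89, adjusted p = 0.00707). The median log2 fold change of these 13 genes was -0.44. On library totals 8 were lower and 2 higher, and the call for Dhrs9 was lost without TgL 1, TgL 2, TgL 3 or TgLC 4 and without both YXL mice.

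Of 16 aldehyde dehydrogenases tested, 7 fell and 3 rose, beside 15.0% lower and 16.2% higher among all genes tested. Aldh3a2, the microsomal fatty aldehyde dehydrogenase, had 184, 191, 416 and 236 normalized counts in TgLC livers, against 4767, 3576 and 2913 in TgL livers (log2 fold change -3.92, adjusted p = 2.47e-05), beside -1.96 for Aldh1a1. Aldh4a1, of proline breakdown, also fell (log2 fold change -1.16, adjusted p = 3.00e-04). Aldh1a3, another retinal dehydrogenase of the ALDH1A group, went the opposite way at a low level, with 87, 100.3, 19.2 and 55.1 normalized counts in TgLC livers, against 5.37, 2.99 and 6.12 in TgL livers (log2 fold change 3.32, adjusted p = 0.00197). Aldh18a1, of proline synthesis, rose (log2 fold change 2.02, adjusted p = 0.00348), and Aldh3b1 rose (log2 fold change 0.66, adjusted p = 0.028), a call that leaving out TgL 2, TgL 3, TgLC 2 or TgLC 4 alone ended (adjusted p = 0.1, 0.0804, 0.0686 and 0.0554). On library totals 10 of the 16 were lower and 2 higher. Aldh1a2, a further retinal dehydrogenase of the ALDH1A group, was at 0 to 6 normalized counts in TgLC livers and 0 to 8.05 in TgL livers and was not tested.

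Genes of ethanol oxidation outside the alcohol dehydrogenases were lower as well, beside 15.0% of all genes tested. All 4 genes tested fell: Cyp2e1, the ethanol-inducible cytochrome (log2 fold change -1.30, adjusted p = 0.00168), Cat, catalase (log2 fold change -1.88, adjusted p = 8.48e-05), Acss2, which activates acetate (log2 fold change -2.92, adjusted p = 2.37e-04), and Aldh2, the mitochondrial acetaldehyde dehydrogenase (log2 fold change -0.97, adjusted p = 0.00303). Cat had 6237, 6074, 9408 and 6982 normalized counts in TgLC livers, against 26321, 26640.5 and 25322 in TgL livers. Cyp2e1 had 25835, 20993, 25954 and 23202 normalized counts in TgLC livers, against 73813, 62735 and 44003 in TgL livers. Aldh2, Rdh10, Dhrs9 and the cluster neighbours Adh5, Adh6a, Rdh9, Rdh16f2 and Sdr9c7 were named after their values were seen, to complete a count or a row of genes.

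Of the 8 genes for retinyl esters and carotenoid cleavage, 2 fell and 1 rose, beside 15.0% lower and 16.2% higher among all genes tested. Ces1d, a carboxylesterase with retinyl ester hydrolase activity, had 486, 732, 697 and 547 normalized counts in TgLC livers, against 8042, 6998 and 6839 in TgL livers (log2 fold change -3.58, adjusted p = 2.61e-06). Bco2, which cleaves carotenoids in mitochondria, had 60, 60.4, 82 and 63.1 normalized counts in TgLC livers, against 277, 216 and 246 in TgL livers (log2 fold change -1.88, adjusted p = 6.97e-05). Lpl, lipoprotein lipase, rose (log2 fold change 1.55, adjusted p = 0.0147), and the call was lost without TgL 2 (adjusted p = 0.0542) and with the YXL mice as the only TgLC mice (adjusted p = 0.071).

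Rbp4, the plasma carrier of retinol that hepatocytes secrete, had 7800.4, 8621, 15336 and 13248 normalized counts in TgLC livers, against 21567, 20762 and 14545 in TgL livers. TgLC 3 lay above TgL 3, and the call was at the threshold (log2 fold change -0.79, adjusted p = 0.0481). Leaving out TgL 1, TgL 2, TgLC 2, TgLC 4 or TgLC 1 alone ended the call (adjusted p = 0.159, 0.15, 0.107, 0.051 and 0.0908), as did keeping the YXL mice as the only TgLC mice (log2 fold change -0.39, adjusted p = 0.185).

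At the retinoic acid end of the pathway, Cyp26a1, which clears retinoic acid and is induced by it, varied widely, with 39, 16.4, 111 and 20 normalized counts in TgLC livers, against 23.2, 132 and 184 in TgL livers (log2 fold change -1.23, adjusted p = 0.268). The groups overlapped. Its promoter holds the DR5 retinoic acid element, a direct repeat found in 0.0883% of windows and in none of the 10 genes, shown here with its repeats in capitals, as read on the plus strand at chr19:37697770-37697798 (GRCm38.p6).
Cyp26a1: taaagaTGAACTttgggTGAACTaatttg
Cyp26b1, the related enzyme, had 3, 0, 4.05 and 1 normalized counts in TgLC livers, against 41.1, 163 and 18.4 in TgL livers, and fell (log2 fold change -4.34, adjusted p = 0.00393), with a fitted size that depends on the pseudocount because TgLC livers held a few reads or none. Of 7 retinoic acid target genes tested 2 fell (Dhrs3 and Cyp26b1) and 2 rose. These counts stand beside 15.0% lower and 16.2% higher by limma among all genes tested. Tgm2, a transglutaminase, was among those that rose (log2 fold change 1.89, adjusted p = 7.02e-05). On library totals 3 were lower and 1 higher. By limma 1 rose without TgL 1, TgL 2, TgLC 2, TgLC 3 or TgLC 4 alone, and without both YXL mice. Tgm2 had 5495, 4663, 3513 and 4127 normalized counts in TgLC livers, against 1043, 1185 and 1346 in TgL livers.

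The receptors showed no call by limma, beside 31.2% of all genes tested called in either direction. Among the 6 genes for RARs and RXRs 0 passed, 2 were lower at an unadjusted p under 0.05, 0 passed by limma-voom, and 1 was lower by edgeR and by DESeq2. On library totals 2 were lower, and by limma 1 was lower without TgL 2, without TgLC 3 and without both YXL mice. Rarb, a receptor that is itself a retinoic acid target, was at 10, 17.4, 7.08 and 11 normalized counts in TgLC livers, against 15.2, 28.9 and 21.4 in TgL livers (log2 fold change -0.90, adjusted p = 0.103), and its groups overlapped.

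Several of the enzymes are expressed unevenly across the liver lobule, and genes of both zones were also lower. The counts that follow stand beside 15.0% lower and 16.2% higher by limma among all genes tested. Of 10 pericentral hepatocyte genes tested 7 fell (9 on library totals), among them Cyp2c29 (log2 fold change -2.06, adjusted p = 7.26e-06) and Cyp1a2 (log2 fold change -3.64, adjusted p = 5.53e-05). Of 10 periportal genes 5 fell, led by Cyp2f2 (log2 fold change -5.79, adjusted p = 8.88e-07), and 2 rose, of which 1 did without TgL 1, TgL 2, TgLC 1, TgLC 2 or TgLC 3 and on library totals. Of 10 hepatocyte markers 2 fell (Cps1, log2 fold change -1.72, adjusted p = 0.00359, and Apoa2, log2 fold change -0.87, adjusted p = 0.00514) and 3 rose (Serpina1c, log2 fold change 0.76, adjusted p = 0.0214, Tat, log2 fold change 0.95, adjusted p = 0.026, and Hnf4a, log2 fold change 0.45, adjusted p = 0.0347). The count of higher markers moved with single mice: 0 rose without TgL 1 or TgL 2, 1 without TgL 3 or TgLC 4 and 2 without TgLC 1, TgLC 2 or TgLC 3, each with 2 lower, and on library totals 3 fell and 0 rose. The 15 acute-phase genes all rose. The 3 neutrophil markers tested rose (1 with the YXL mice as the only TgLC mice), with the list summing to 79.1 to 148 normalized counts in TgLC livers and 6.97 to 39.8 in TgL livers, and of 7 Kupffer cell and macrophage markers 0 passed by limma, at an unadjusted p, or by limma-voom, edgeR and DESeq2, although edgeR on library totals called 2 lower. The part of cell composition in the lower level of the 6 genes was not tested.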

How the data were processed

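Livers of 4 TgLC and 3 TgL mice with TAM injection were grouped by the genotype in the sample labels. The submitters' processing notes name DESeq2 1.20.0, featureCounts 1.5.0-p3, HISAT2 2.0.5 and fastp. Genome build, annotation and strandedness were not given in the sources used here. The deposited values are a normalized signal, read counts per gene divided by the authors by a DESeq2 size factor for each mouse. Values were whole multiples of the size factor's step within 1e-06 in all 7 mice, and recomputed DESeq2 size factors matched those steps. In 3 mice the step is too near 1 for the recovery to be accepted from the values alone, so tests on recovered reads served as alternatives only.

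Limma 3.58.1 (R 4.3.3, trend, empirical Bayes, genotype as the only term) was run on log2(normalized count + 1), and fold changes on that scale understate changes of low genes. Genes with a mean of at least 10 over the 7 mice were tested (13145, leaving out 10449), with Benjamini-Hochberg adjustment over all of them and a threshold of 0.05. No count column was given, so limma took the place of edgeR. Alternatives were pseudocounts of 0.5 and 5, no filter, a mean of at least 50, limma-voom, edgeR 4.0.16 with DESeq2 size factors, TMM or library totals, DESeq2 1.42.0, the 4 mice labelled 8264 to 8270, and leaving out each mouse. Leaving out the TgLC mice labelled YXL or those with number labels, and a second term for the label series, were chosen after seeing the data. That term set labels 8264 to 8270 against all others, so TgL 3 (8530) was placed with the YXL mice. All methods were tested on simulated counts.

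The 10 genes and all lists were chosen with earlier results of these data known. All 10 are named, with Lif, Xist and Y-linked genes, Cyp26a1, Rbp4 and Rarb, and in each list the 3 risers and 3 fallers (or fewer) with the smallest adjusted p, and a gene of these lists is not reported here. Symbols matched 22679 of 23594 identifiers. Mice within a genotype all differed beyond sampling noise (chi-square per degree of freedom 9.96 to 52.2). Mice are separate animals by their labels, and a depth of 9367681 to 12448961 reads leaves genes with a few reads imprecise. Promoters came from RefSeq (GRCm38.p6) and transcripts from GENCODE M21.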

Additional observations from a re-analysis of the deposited data

Results flagged for a closer look

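In 3 of 34 genes checked, the highest TgLC mouse lay apart from the other TgLC mice by more than Dixon's 95% critical value for 4 samples (0.829). About 1 in 20 groups exceed it by chance, and groups of 3 TgL mice were not checked. Aldh1a7 was at 1932 normalized counts in TgLC 4, with the nearest TgLC mouse at 1238, and this mouse also decides whether Aldh1a7 passes the test. Bco2 was at 82.0 normalized counts in TgLC 3, with the nearest at 63.1, and this mouse still lay below every TgL mouse. Lif was at 25.0 normalized counts in TgLC 4, with the nearest at 12.3.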

How the results depend on the processing

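Rdh16, Rdh11, Dhrs3, Adh1, Adh4 and Aldh1a1 stayed lower and past the threshold in all 20 alternatives, and no result reversed. edgeR on library totals called 4275 genes lower and 1177 higher, against 1977 and 2127 by limma, and gave the 10 genes a median log2 fold change of -1.66, while moving the median of all genes by -0.30. In the 4 mice labelled 8264 to 8270, 1 of the 10 genes, Lrat, was higher, beside 18.7% of all genes tested, and 9 were lower, beside 19.7%. In these 4 mice the log2 differences in ratio were -2.42 for Rdh16 to Rdh7 and -1.37 for Rdh16 to Dhrs3. Leaving out single mice gave 1205 to 2047 genes lower (1205 without TgL 1, 1248 without TgL 2) and 1381 to 2072 higher (1381 without TgL 1), 6 to 7 of the 10 genes lower, 0 higher, a median of -1.42 to -1.25, and log2 differences in ratio of -2.99 to -2.55 for Rdh16 to Rdh7, 0.50 to 0.84 for Adh4 to Adh1, 1.26 to 1.56 for Aldh1a7 to Aldh1a1 and -1.81 to -1.57 for Rdh16 to Dhrs3. The cause of these shifts was not tested beyond fewer mice being fitted. Among single genes, 607 comparisons with an alternative kept their call, 34 lost it and 13 gained it. No paired analysis was possible because the replicate numbers come from the order of the samples and pair no mice. With 3 and 4 mice and the depth given, genes at a few reads, such as Cyp26b1 and Adh6b, have uncertain fold changes.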

Other observations

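Xist was at 3521 to 7618 normalized counts in TgLC livers and 7445 to 9246 in TgL livers, and 4 Y-linked genes together were at 0 to 2.05 normalized counts in TgLC livers and 0.894 to 22.4 in TgL livers. The highest Y-linked sum was that of TgL 3, the mouse labelled 8530.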
